A study of Mus musculus with 40 samples.

Results

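Adolescent female mice that drank plain water and were injected with morphine were compared with mice of the same age and drink that were injected with saline. The comparison rests on 10 of the 40 libraries of the series, 5 with morphine and 5 with saline, chosen by the age, drink and injection in the library labels. All animals were wild type C57BL/6J, an inbred mouse strain, and the adolescents entered the experiment on postnatal day 25. Morphine was injected under the skin at 15 mg/kg, and both injections ran over 5 days. The other 30 libraries are of adolescents given oral antibiotics and of adults, on plain water or on antibiotics, that started on postnatal day 55. They share the estimate of the spread between libraries behind every test. Levels of the adolescents on antibiotics and of the adults on water are used to set the same genes beside the same drug contrast. The adults on antibiotics enter only the estimate of the spread. The tissue label reads brain with all cell types, the series title names the medial prefrontal cortex, and polyadenylated RNA was sequenced. The sources used here do not give the hour of tissue collection or the time since the last injection. Whether each library is a mouse of its own is not stated, so the p-values reflect only how these libraries varied, which may be technical.

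Morphine acts on the mu opioid receptor, a receptor coupled to inhibitory G proteins that lowers cyclic AMP and damps the firing of the neurons that carry it. Neurons answer synaptic activity within minutes by transcribing immediate early genes such as Fos, Arc and Npas4, through calcium, MAP kinase and the transcription factor CREB, so these transcripts are widely read as a record of recent activity. A separate set of genes follows the time of day: in most cells Clock and Arntl activate the period and cryptochrome genes through E-boxes, period and cryptochrome proteins repress that activation, and Dbp, Tef and Hlf carry the rhythm to other genes.

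The morphine libraries held 9504498 to 12098769 counts and the saline libraries 8636712 to 9675342. Levels are in counts-per-million (CPM, scaled between libraries by the TMM method), on which 3 counts in a library stood for 0.248 to 0.347 CPM. Saline replicate 5 stood apart from the other 9 libraries, with 5.68% of its counts from mitochondrially encoded genes against 3.72% to 4.25% in the morphine libraries and 3.68% to 4.57% in the other saline libraries. It also had the highest summed levels of astrocyte, microglial, mural and endothelial markers of the 10 libraries, at 6714, 624.5, 485.8 and 565.6 CPM. Markers of cortical excitatory neurons summed to 8850 to 9260 CPM in the morphine libraries and 8470 to 9800 CPM in the saline libraries. These sums hide a lean: 7 of the 8 markers had positive log2 fold changes with morphine and 1 negative. Their median was 0.11, and 0 were called. Camk2a, the negative one, weighs heavily in the sums, at means of 4218 CPM with morphine and 4515 CPM with saline. Tbr1 was lowest of the 10 libraries in saline replicate 5, at 112.9 CPM, and Neurod6 in saline replicate 4, at 61.81 CPM. Of 8 choroid plexus markers, Ttr, Folr1, Clic6, Prlr, Sostdc1 and Slc4a5 were too low to be tested.

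With morphine several immediate early genes fell and several clock genes rose. Of 17880 genes tested, 57 were called at an edgeR adjusted p under 0.05 (0.319%), 33 higher with morphine (0.185%) and 24 lower (0.134%). The falls were larger than the rises: the median size of a called change was 1.02 on the log2 scale among lower genes and 0.36 among higher genes, and the largest rise was 0.98. The median log2 fold change of all genes tested was 0.002, and 50.5% of them were positive. In 45 of the 57 called genes every morphine library lay on 1 side of every saline library, against 426 of all genes tested (2.38%). Of the 57 genes, 22 stayed called without each of the 10 libraries in turn, 11 higher and 11 lower.

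Among the early genes Ccn1 and Btg2 fell most. Btg2, an early gene that restrains cell division, stood at 6.76, 8.32, 10.8, 9.17 and 13.1 CPM in the morphine libraries, against 29.8, 34, 35.7, 44.3 and 45 CPM in the saline libraries. The groups did not overlap, and the lowest saline library held more than 2 times the level of the highest morphine library. With morphine Btg2 was 3.96-fold lower, a log2 fold change of -1.99 ± 0.19 (SE; edgeR adjusted p = 5.8e-08). Ccn1, which codes for a secreted matrix protein of vessels and neurons, had 1.59, 2.08, 2.31, 3.69 and 4.51 CPM in the morphine libraries, against 8.03, 8.56, 10.3, 14.9 and 19.6 CPM in the saline libraries. Saline replicates 4 and 5 were the highest of the 10 and the groups did not overlap. Ccn1 fell by 2.14 ± 0.25 (adjusted p = 4.06e-07). Dusp1, a phosphatase that switches off MAP kinases, had 24.6, 24.9, 21.4, 24.5 and 28.1 CPM in the morphine libraries, against 43.8, 50.3, 62.4, 64.5 and 58.8 CPM in the saline libraries. The morphine libraries lay close together, all below the lowest saline library, and Dusp1 fell by 1.18 ± 0.15 (adjusted p = 7.36e-06). Gadd45g, a stress-induced growth arrest gene, averaged 8.21 ± 1.6 CPM with morphine and 16.2 ± 1.44 CPM with saline (SD, n = 5 each) and fell by 0.99 ± 0.15 (adjusted p = 4.6e-05). Ier2, an early nuclear factor, averaged 9.09 ± 3.02 CPM with morphine and 19.4 ± 4 CPM with saline (SD, n = 5 each) and fell by 1.11 ± 0.16 (adjusted p = 1.54e-05). Neither overlapped between the groups. All 5 genes stayed called without each library and in every other fit that was tried. Cdkn1a, the cell cycle inhibitor p21, fell by 0.48 ± 0.1 (adjusted p = 0.0138), to 23.6 ± 1.98 CPM with morphine, against 32.9 ± 4.79 CPM with saline (SD, n = 5 each). That call ended without saline replicate 4 or morphine replicates 1 or 5, at adjusted p-values up to 0.0769.

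Of the transcripts read as a record of neuronal activity, Npas4, Arc and Fos fell. Npas4, a transcription factor gene that answers calcium entry in neurons, had 15.2, 12.7, 11.1, 25.1 and 41 CPM in the morphine libraries, against 74.7, 58.2, 67.5, 72.2 and 70.9 CPM in the saline libraries. Morphine replicate 5 was the highest of its group and still lay below every saline library. Npas4 fell by 1.72 ± 0.34 (adjusted p = 0.0119). Arc, which moves to active dendrites and drives AMPA receptor removal, had 111, 103, 79.2, 137 and 165 CPM in the morphine libraries, against 194, 197, 239.7, 351 and 348 CPM in the saline libraries. The groups did not overlap, and saline replicates 4 and 5 were far above the other saline libraries. Arc fell by 1.16 ± 0.24 (adjusted p = 0.0167). Fos, an AP-1 subunit, had 23.8, 23.5, 15.4, 30.3 and 33.1 CPM in the morphine libraries, against 44.7, 39.7, 47, 61.8 and 50.8 CPM in the saline libraries, without overlap, and fell by 0.95 ± 0.22 (adjusted p = 0.0431). These calls depended on single libraries. Npas4 lost its call without morphine replicates 1 or 2 (adjusted p up to 0.0547), Arc without saline replicates 4 or 5 or morphine replicates 1, 2 or 3 (up to 0.0824), and Fos without each of saline replicates 1, 3, 4 and 5 and morphine replicates 1 to 4 (up to 0.136). In a fit restricted to the 2 groups, adjusted p-values were 0.146 for Npas4, 0.202 for Arc and 0.107 for Fos.

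**Figure D1:**
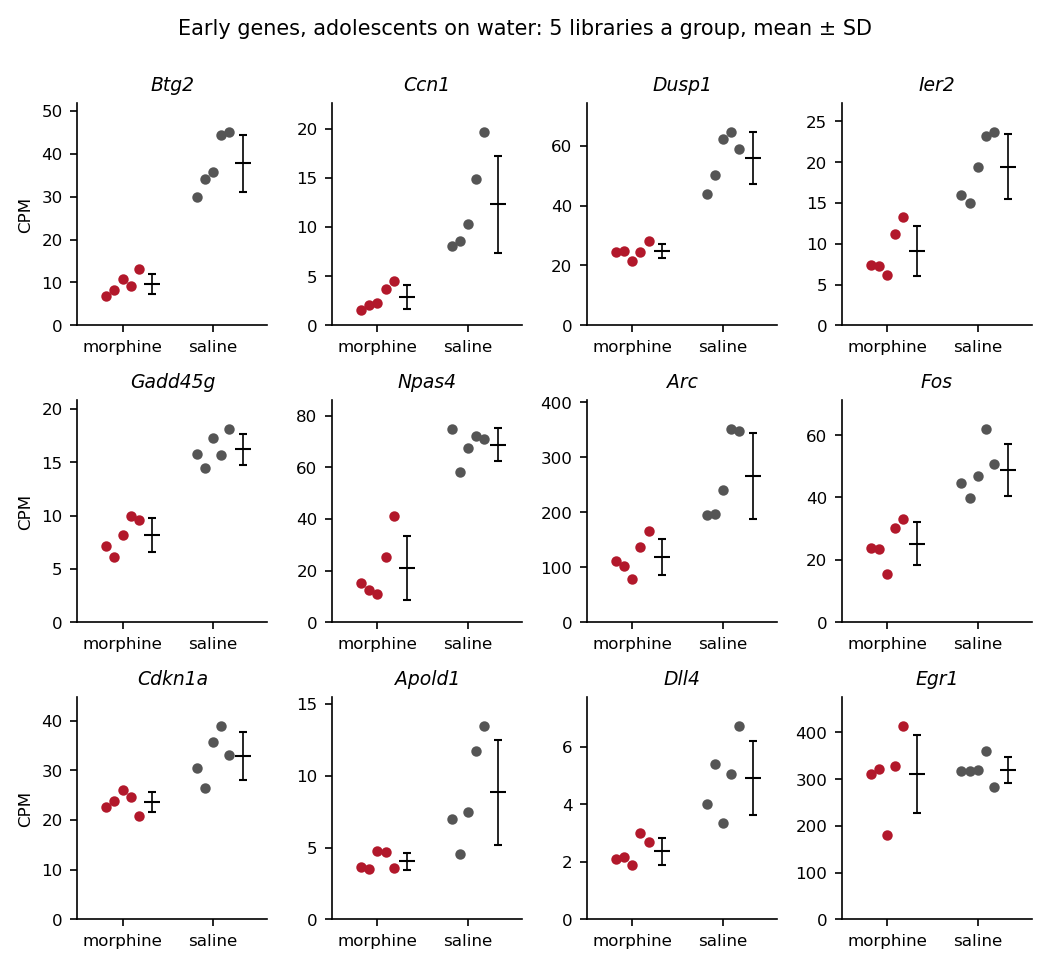
Levels in CPM (vertical axes, from 0) of 11 called early genes and of Egr1, which was not called, in the 5 morphine libraries (left, red) and the 5 saline libraries (right, grey) of adolescents on water. Points are libraries, and bars give the mean and SD. All morphine libraries lie below all saline libraries except for Apold1 and Egr1. Dll4, a Notch ligand gene, is counted with the early genes.

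Other early genes were not called. Egr1, a zinc finger factor induced by the same stimuli as Fos, had 310.4, 322, 180.0, 329 and 413 CPM in the morphine libraries, against 317, 318, 320.2, 359.7 and 284 CPM in the saline libraries. Its morphine libraries spanned the lowest and the highest of the 10, and its log2 fold change was -0.04 ± 0.2 (95% interval -0.45 to 0.37, adjusted p = 0.946). Nr4a1, an orphan nuclear receptor gene, had 104, 96.9, 64.1, 102 and 88.5 CPM in the morphine libraries, against 124, 111, 128, 156 and 181 CPM in the saline libraries. The groups did not overlap, but its log2 fold change of -0.62 ± 0.15 did not pass (adjusted p = 0.0682). Its relative Nr4a3 ran the other way, with 52.4, 50.8, 34.9, 47.5 and 43.5 CPM in the morphine libraries, against 29, 21.2, 30.8, 21.9 and 29.6 CPM in the saline libraries. All morphine libraries were above all saline libraries, at a log2 fold change of 0.79 ± 0.19 that did not pass (adjusted p = 0.0634). Of the AP-1 subunits Junb and Fosb had log2 fold changes of -0.45 ± 0.17 and -0.33 ± 0.14 (adjusted p = 0.246 and 0.296).

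By list, 1 of 9 tested AP-1 subunits fell and 0 rose, with a median log2 fold change of -0.14. Of 22 activity transcription factors with Arc, 3 fell and 0 rose, with a median of -0.05, and of 12 growth arrest early genes 3 fell and 0 rose, with a median of -0.21. Of 17 MAP kinase phosphatases and feedback inhibitors 1 fell and 2 rose, with a median of 0. The shares over all genes tested were 0.134% lower and 0.185% higher. The 2 that rose, Spred1 and Spred2, code for membrane proteins that restrain the Ras to MAP kinase path, and Dusp1, which fell, acts further down it. Spred1 averaged 236 ± 11.9 CPM with morphine and 195 ± 13.2 CPM with saline, and Spred2 averaged 135 ± 8.49 CPM with morphine and 109 ± 5.83 CPM with saline (SD, n = 5 each), at log2 fold changes of 0.28 ± 0.06 and 0.31 ± 0.07 (adjusted p = 0.0211 and 0.0247). Both were higher in 5 of 5 morphine libraries than in any saline library, but Spred1 lost its call without any 1 of 5 libraries and Spred2 without any 1 of 7, at adjusted p-values up to 0.0916 and 0.114.

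A pair of endothelial genes also fell. Apold1, an early gene of endothelial cells, had 3.67, 3.53, 4.73, 4.68 and 3.55 CPM in the morphine libraries, against 7, 4.55, 7.46, 11.7 and 13.4 CPM in the saline libraries. Saline replicate 2 lay inside the morphine range and saline replicates 4 and 5 far above it. Apold1 fell by 1.14 ± 0.21 (adjusted p = 0.00187). Dll4, a Notch ligand of endothelial tip cells, had 2.09, 2.17, 1.89, 2.99 and 2.69 CPM in the morphine libraries, against 4.01, 5.42, 3.36, 5.07 and 6.71 CPM in the saline libraries, without overlap, and fell by 1.06 ± 0.21 (adjusted p = 0.00488). Both stayed called without each library but not in a fit restricted to the 2 groups (0.0805 and 0.0595). Of 12 endothelial markers 0 were called, with a median log2 fold change of -0.07, and they summed to 393 to 534 CPM in the morphine libraries and 343 to 566 CPM in the saline libraries. Saline replicates 5 and 4 had the highest sums among the saline libraries, at 565.6 and 518.8 CPM, as they did the highest levels of Apold1 and Ccn1, and the part of this in their falls was not tested. Among them the tight junction gene Cldn5 stood at -0.44 ± 0.14 and the glucose transporter gene Slc2a1 at 0.38 ± 0.1 (log2 fold change ± SE; adjusted p = 0.17 and 0.0947). In such bulk tissue fewer cells of a type and less RNA per cell cannot be told apart.

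Of 4 genes that lie together on chromosome 11, 3 fell. The locus holds the precursors of miR-212 and miR-132, microRNAs that CREB induces in active neurons and that act on dendrite growth. In the reference annotation (GENCODE M21, GRCm38) both hairpins lie on the plus strand in an intron of the noncoding gene 1700016P03Rik, whose last exon overlaps Ovca2, a hydrolase gene on the minus strand. The mature sequences are from RefSeq (GRCm38.p6), 5′ to 3′, with the seed (bases 2 to 8, which pair with targets) in capitals. They are shown because the 3p arms of both genes share the seed AACAGUC, while the 5p arms do not share theirs.
mmu-miR-212-3p: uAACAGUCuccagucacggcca
mmu-miR-132-3p: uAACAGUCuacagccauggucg
mmu-miR-212-5p: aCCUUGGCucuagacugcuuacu
mmu-miR-132-5p: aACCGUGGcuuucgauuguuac
The Mir212 hairpin is at chr11:75173388-75173478 and the Mir132 hairpin at chr11:75173682-75173747, both on the plus strand.

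Libraries of polyadenylated RNA read the primary transcript over these hairpins and not the mature microRNAs. Mir212 had 0.918, 0.814, 0.315, 0.598 and 1.29 CPM in the morphine libraries, against 2.98, 3.04, 3.05, 3 and 2.69 CPM in the saline libraries. All saline libraries were above all morphine libraries, and morphine replicate 3 lay at the level of 3 counts. Mir212 fell by 1.89 ± 0.34 on the log2 scale (adjusted p = 0.000834), and it stayed called without each library. Mir132 had 0.584, 0.181, 0.105, 0.897 and 0.752 CPM in the morphine libraries, against 0.918, 0.976, 1.16, 1.24 and 0.723 CPM in the saline libraries. Morphine replicates 2 and 3 lay under the level of 3 counts and the groups overlapped, at a log2 fold change of -0.98 ± 0.46 (adjusted p = 0.339). The host 1700016P03Rik, named after its values were seen, had 7.35, 7.59, 9.77, 10.7 and 9.03 CPM in the morphine libraries, against 19.7, 14.3, 21, 21.7 and 30.8 CPM in the saline libraries, and fell by 1.28 ± 0.15 (adjusted p = 5.89e-08). Ovca2 had 7.18, 7.78, 9.77, 5.78 and 4.84 CPM in the morphine libraries, against 21.3, 17.6, 16.8, 18.2 and 19.7 CPM in the saline libraries, and fell by 1.4 ± 0.16 (adjusted p = 6.21e-08). Neither overlapped between the groups, and both stayed called in every fit tried. The strand setting of the counting is not given, so reads of 1700016P03Rik and Ovca2 may be shared where they overlap, and the falls of these genes may not be independent. Exons of Ovca2 also overlap Dph1 on the same strand, where reads of both cannot be told apart under any strand setting.

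**Figure D2:**
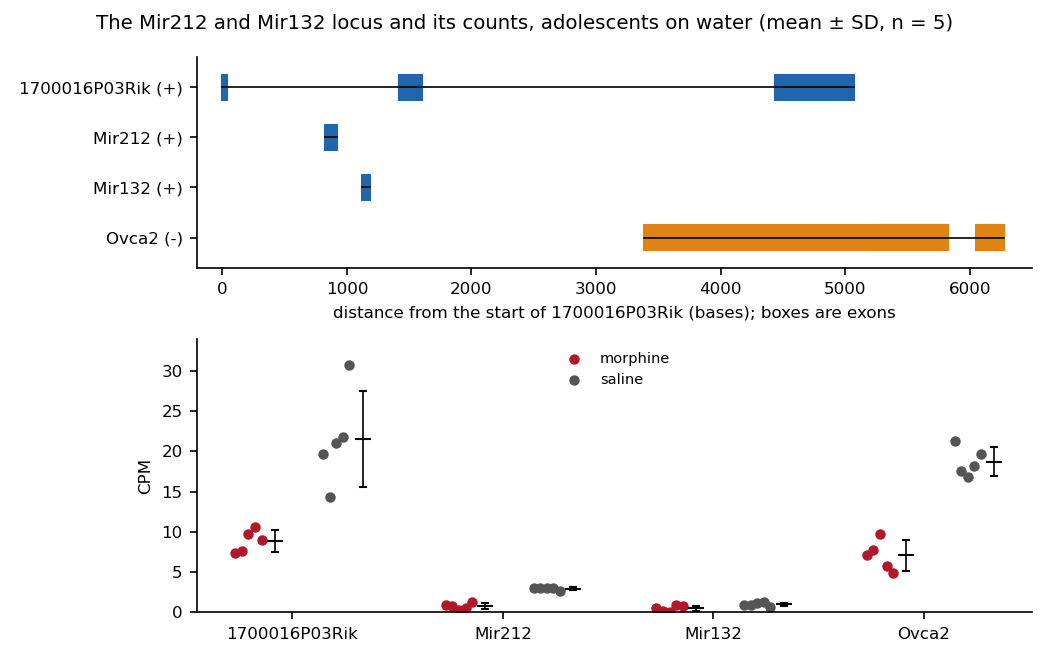
Top, the Mir212 and Mir132 locus in bases from the start of 1700016P03Rik (horizontal axis), with exons as boxes and the strand in brackets. Bottom, CPM of the 4 genes (vertical axis, from 0) in the 5 morphine libraries (red) and 5 saline libraries (grey), with mean and SD. Morphine libraries lie below saline libraries for 1700016P03Rik, Mir212 and Ovca2 and overlap them for Mir132.

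Clock repressors and output factors rose and an activator fell. Of 10 repressors of the clock 5 rose and 0 fell, with a median log2 fold change of 0.4, and of 4 PAR bZIP output factors 3 rose and 0 fell, with a median of 0.32. Of 6 activators 0 rose and 1 fell, with a median of -0.03. Of 7 clock kinases and ubiquitin ligases 0 were called, with a median of 0.12. Over all genes tested 0.185% were called higher and 0.134% lower.

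Among the repressors, Per2, a period gene, had 72.5, 64.8, 44, 65.2 and 64.7 CPM in the morphine libraries, against 36.5, 29.4, 30.6, 25.7 and 35.9 CPM in the saline libraries. Morphine replicate 3 was well below the rest of its group and still above every saline library. Per2 rose 1.97-fold (log2 fold change 0.98 ± 0.15, adjusted p = 0.000403). Cry1, a cryptochrome gene, had 17, 14.2, 17.9, 20.7 and 18.9 CPM in the morphine libraries, against 13.8, 14.3, 10.5, 11.1 and 13.6 CPM in the saline libraries. Its groups overlapped, since morphine replicate 2 lay below the highest saline library, and it rose 1.4-fold (adjusted p = 0.0351). Bhlhe40 and Bhlhe41, factors that compete for E-boxes, averaged 169 ± 18.6 and 44.4 ± 2.53 CPM with morphine and 127 ± 4.47 and 33.7 ± 4 CPM with saline (SD, n = 5 each). Neither overlapped between the groups, and they rose 1.33-fold and 1.32-fold (adjusted p = 0.00126 and 0.0133). Nr1d2, a nuclear receptor that represses Arntl, averaged 111 ± 7.49 CPM with morphine and 86.6 ± 9.56 CPM with saline (SD, n = 5 each) and rose 1.28-fold (adjusted p = 0.0017). Its close relative Nr1d1 stood at a log2 fold change of -0.04 ± 0.06 (95% interval -0.15 to 0.08, adjusted p = 0.798).

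Further repressors did not pass. Per1 had 153, 169, 129.8, 149.6 and 145 CPM in the morphine libraries, against 114, 88, 92.9, 105 and 139.6 CPM in the saline libraries, which overlapped through saline replicate 5, at a log2 fold change of 0.47 ± 0.12 (adjusted p = 0.0606). Cry2 lay higher in all 5 morphine libraries than in any saline library, at a log2 fold change of 0.21 ± 0.06 that did not pass (adjusted p = 0.129). Ciart, Per3 and Nr1d1 complete the list, with log2 fold changes of 0.47 ± 0.14 for Ciart and 0.24 ± 0.09 for Per3 (adjusted p = 0.122 and 0.249).

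Of the output factors, Dbp had 130.0, 126, 121, 149.6 and 141 CPM in the morphine libraries, against 91.5, 93.8, 62.2, 80.8 and 77.2 CPM in the saline libraries. Every morphine library was above every saline library, and Dbp rose 1.65-fold (log2 fold change 0.72 ± 0.09, adjusted p = 1.07e-06). Tef had 416, 418, 428, 428 and 431 CPM in the morphine libraries, against 341, 352, 324, 344 and 344 CPM in the saline libraries. The spread within each group was small beside the gap, and Tef rose 1.24-fold (adjusted p = 4.5e-05). Hlf had 241, 236, 216, 247 and 264 CPM in the morphine libraries, against 186, 215, 188, 211 and 161 CPM in the saline libraries, and rose 1.25-fold (adjusted p = 0.0137). Its lowest morphine library lay just above its highest saline library. Nfil3, which competes with these factors for the same sites, stood at -0.21 ± 0.17 (log2 fold change ± SE, adjusted p = 0.616).

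Of the activators, Arntl had 25.8, 28.5, 25.7, 25.3 and 26.2 CPM in the morphine libraries, against 32.1, 31.6, 36.4, 32.1 and 32.5 CPM in the saline libraries. The groups did not overlap, and Arntl fell by 0.32 ± 0.07 on the log2 scale (adjusted p = 0.0216). Its partners were not called: Clock was at 0.01 ± 0.07 and Npas2 at -0.08 ± 0.08 (log2 fold change ± SE; adjusted p = 0.943 and 0.659). Of the 9 called clock genes 5 stayed called without each library, namely Dbp, Tef, Per2, Bhlhe40 and Nr1d2. Hlf lost its call without saline replicate 5 or morphine replicates 4 or 5 (adjusted p up to 0.126), Arntl without saline replicate 3 or morphine replicates 1 or 4 (0.0573), Bhlhe41 without saline replicates 1 or 3 or morphine replicates 1, 3 or 4 (0.0807), and Cry1 without any 1 of 7 libraries (0.137). In a fit restricted to the 2 groups Nr1d2 was no longer called either (adjusted p = 0.0757).

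**Figure D3:**
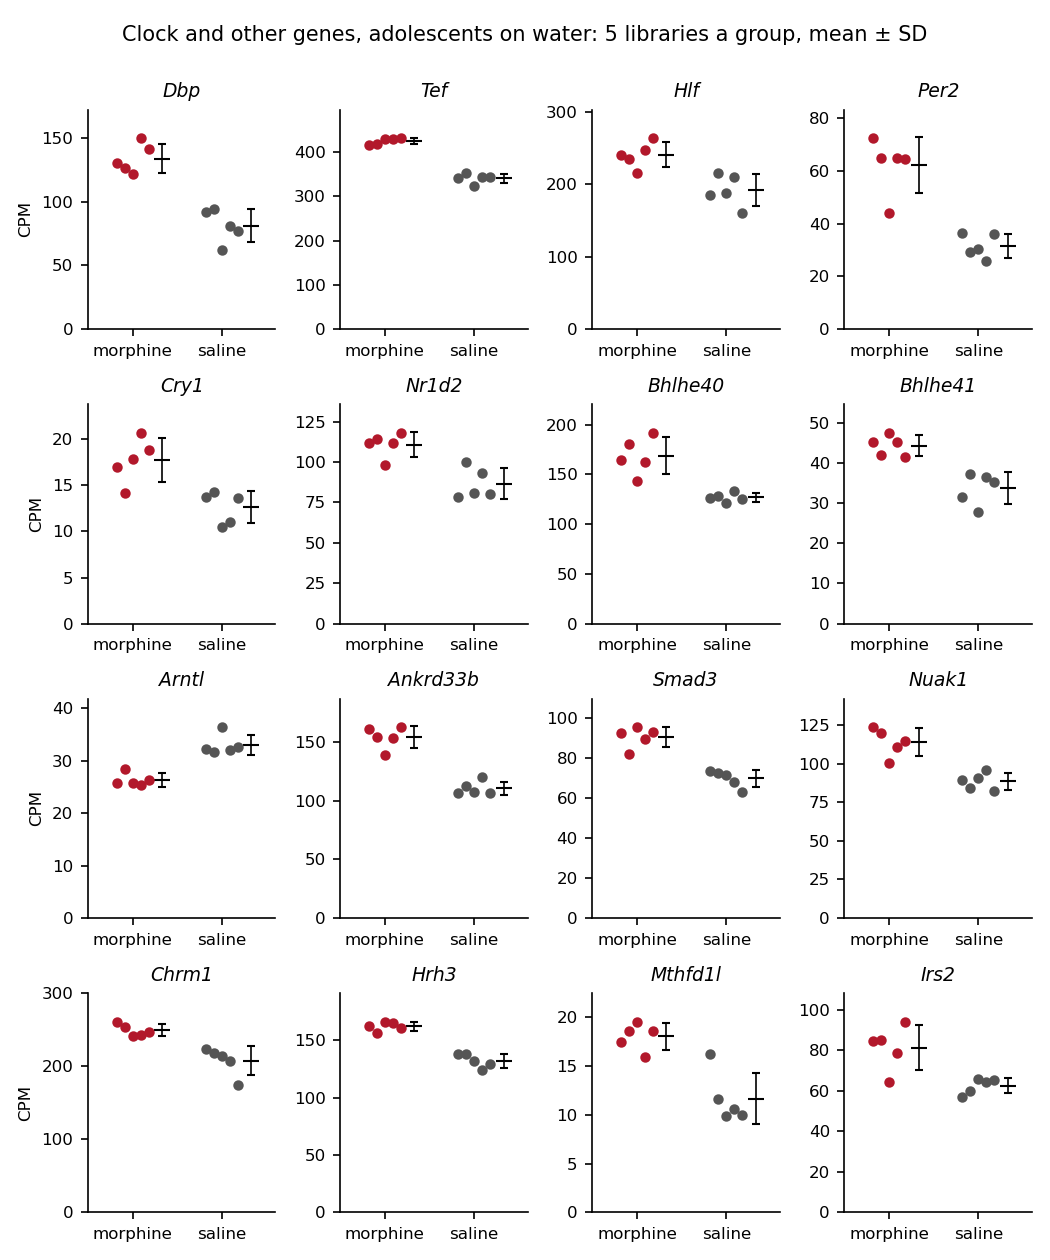
Levels in CPM (vertical axes, from 0) of the 9 called clock genes and of 7 other called genes in the 5 morphine libraries (left, red) and the 5 saline libraries (right, grey) of adolescents on water. Points are libraries, and bars give the mean and SD. Groups overlap for Cry1, Nr1d2, Mthfd1l and Irs2.

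Promoters were read for the called genes, as 300 bases from 250 before a start site on, in RefSeq (GRCm38.p6). They are described because clock factors bind E-boxes and CREB binds cyclic AMP response elements (CRE). Of the 57 called genes 40 matched, with 55 windows. The E-box CACGTG was found in 8 of 36 windows of higher genes (7 of 25 genes) and 2 of 19 windows of lower genes (2 of 15 genes), against 7.15% of all 32851 windows. The full CRE TGACGTCA was in 2 of 36 windows of higher genes (Hlf and Sphk2) and 2 of 19 windows of lower genes (Btg2 and Dusp1), against 1.79% of all windows. Both motifs read the same on either strand, and each full CRE holds the half-site TGACG, which was searched on both strands, in 12 of 36 windows of higher genes and 6 of 19 windows of lower genes, against 20.8% of all windows. The CArG box, bound by the serum response factor, was in 0 of the windows, against 1.63% of all windows. At that share 55 windows would hold few or none, so the 0 shows no lack of sites. Sites more than 250 bases before a start were not searched. Dbp, Tef and Hlf bind the D-boxes TTATGTAA and TTACGTAA. These were in 3 of 36 windows of higher genes (1 of 25 genes, Ak4) and 0 of 19 windows of lower genes, against 1.06% of all windows. The 3 windows of Ak4 overlap and hold the same single site, so the window count is no excess of sites. These are letters in a window and no measure of binding. Of the 7 called clock genes that matched, Tef, Cry1 and Bhlhe41 had an E-box in their windows, and Dbp, Hlf, Nr1d2 and Arntl had none. The promoters of a pair of genes that fell and a pair of clock genes that rose are shown, picked because they hold a motif, with E-boxes, CREs and CRE half-sites in capitals.
Btg2: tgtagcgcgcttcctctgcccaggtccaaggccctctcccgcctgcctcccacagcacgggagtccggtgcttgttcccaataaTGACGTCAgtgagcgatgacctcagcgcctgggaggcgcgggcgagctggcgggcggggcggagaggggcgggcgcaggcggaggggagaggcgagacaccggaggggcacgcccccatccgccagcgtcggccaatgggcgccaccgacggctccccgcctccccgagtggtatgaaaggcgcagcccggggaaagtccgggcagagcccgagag
Dusp1: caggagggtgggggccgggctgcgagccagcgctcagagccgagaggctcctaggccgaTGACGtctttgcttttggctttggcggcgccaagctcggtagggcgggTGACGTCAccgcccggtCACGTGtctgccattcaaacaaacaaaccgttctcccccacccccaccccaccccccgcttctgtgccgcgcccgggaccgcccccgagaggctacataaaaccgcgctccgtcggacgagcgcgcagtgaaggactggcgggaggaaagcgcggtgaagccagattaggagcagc
Cry1: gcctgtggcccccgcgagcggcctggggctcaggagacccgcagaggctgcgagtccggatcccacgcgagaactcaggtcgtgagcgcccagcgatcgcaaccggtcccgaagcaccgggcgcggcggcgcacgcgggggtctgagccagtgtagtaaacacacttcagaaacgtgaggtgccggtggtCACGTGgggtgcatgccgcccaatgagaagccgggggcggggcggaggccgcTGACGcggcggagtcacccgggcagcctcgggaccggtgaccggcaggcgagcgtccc
Bhlhe41: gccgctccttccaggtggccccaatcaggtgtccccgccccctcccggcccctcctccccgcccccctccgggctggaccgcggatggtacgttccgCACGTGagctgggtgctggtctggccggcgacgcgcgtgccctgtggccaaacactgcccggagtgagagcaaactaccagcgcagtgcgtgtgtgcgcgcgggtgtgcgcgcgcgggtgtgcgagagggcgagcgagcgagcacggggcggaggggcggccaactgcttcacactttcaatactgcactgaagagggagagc
All are on the minus strand and printed 5′ to 3′ along the gene, Btg2 at chr1:134079106-134079405, Dusp1 at chr17:26508423-26508722, Cry1 at chr10:85185005-85185304 and Bhlhe41 at chr6:145865371-145865670. Counted from the start site as 0, the first base of the full CRE was at -166 in Btg2 and -143 in Dusp1, and that of the E-box was at -126 in Dusp1, -60 in Cry1 and -153 in Bhlhe41.

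Other called genes code for kinases and signalling proteins. Sphk2, which makes sphingosine 1-phosphate, averaged 75.5 ± 4.12 CPM with morphine and 57.1 ± 3.93 CPM with saline (SD, n = 5 each) and rose 1.32-fold (adjusted p = 0.000198). It lies across from Dbp, and their exons overlap on opposite strands, so the 2 rises may share reads and cannot be told apart. Of 22 sphingolipid enzymes and receptors Sphk2 was the 1 called, with a median of -0.01. Smad3, which carries TGF-beta signals to the nucleus, had 92.7, 82.2, 95.6, 89.9 and 93.2 CPM in the morphine libraries, against 73.7, 72.9, 71.7, 68.1 and 63.3 CPM in the saline libraries. The groups were well apart, and Smad3 rose 1.3-fold (adjusted p = 0.000356). It was the 1 called among 23 genes of TGF-beta and Smad signalling, whose median was 0.06. Nuak1, a kinase related to AMPK that shapes axon branching, had 124, 120.2, 101, 111 and 115 CPM in the morphine libraries, against 89.5, 84.2, 90.9, 96 and 82.7 CPM in the saline libraries, and rose 1.29-fold (adjusted p = 0.000596). Sik2, a salt-inducible kinase that holds CREB coactivators in the cytoplasm, averaged 39 ± 3.11 CPM with morphine and 30.8 ± 2.5 CPM with saline (SD, n = 5 each) and rose 1.26-fold (adjusted p = 0.0355). Nuak1 and Sik2 were the 2 called of 16 AMPK and related kinases, whose median was 0.03. Beside these list counts, 0.319% of all genes tested were called. Irs2, an adaptor of the insulin receptor, had 84.3, 85.1, 64.2, 78.7 and 94 CPM in the morphine libraries, against 57, 60.1, 65.7, 64.1 and 65.4 CPM in the saline libraries. Morphine replicate 3 lay inside the saline range, and Irs2 rose 1.3-fold (adjusted p = 0.0133).

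Camk1g, a calcium and calmodulin dependent kinase, Stk32c, a serine/threonine kinase of brain, Bcar1, a docking protein of focal adhesions, and the tyrosine phosphatase gene Ptpn9 rose 1.24-fold, 1.2-fold, 1.2-fold and 1.22-fold, each without overlap between the groups (adjusted p = 0.0413, 0.0167, 0.0497 and 0.0474). Sphk2, Smad3 and Nuak1 stayed called without each library, while Irs2, Sik2, Camk1g, Stk32c, Bcar1 and Ptpn9 each lost the call without at least 1 library, with adjusted p-values up to 0.175 for Ptpn9, 0.101 for Irs2 and 0.187 for Bcar1.

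Several called genes code for receptors and transporters of neurons. Chrm1, the M1 muscarinic acetylcholine receptor of cortical pyramidal cells, had 261, 254, 241, 242 and 247 CPM in the morphine libraries, against 224, 219, 214, 207 and 174 CPM in the saline libraries. Saline replicate 5 was the lowest of the 10 and the groups did not overlap. Chrm1 rose 1.2-fold (adjusted p = 0.0133), a call that ended without saline replicate 5 or morphine replicate 1 (adjusted p up to 0.116). Hrh3, a histamine receptor, had 162, 156, 166, 165 and 161 CPM in the morphine libraries, against 138, 138, 132, 124 and 129 CPM in the saline libraries, without overlap, and rose 1.23-fold (adjusted p = 0.021). It lost its call without any 1 of 7 libraries (up to 0.0836), and the antisense gene Gm17180 on the other strand of its exons rose too, so the pair cannot be told apart. Slc6a15, a neutral amino acid transporter gene of neurons, rose 1.26-fold (adjusted p = 0.0271), with overlapping groups, and lost its call without any 1 of 5 libraries (up to 0.208).

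Of metabolic genes, Mthfd1l, a mitochondrial enzyme of folate metabolism, had 17.4, 18.6, 19.5, 15.9 and 18.6 CPM in the morphine libraries, against 16.2, 11.6, 9.88, 10.6 and 10.02 CPM in the saline libraries. Saline replicate 1 lay inside the morphine range, far above the other saline libraries. Mthfd1l rose 1.55-fold (adjusted p = 0.000568) and stayed called without each library, though not in a fit restricted to the 2 groups (adjusted p = 0.0533). Ak4, a mitochondrial adenylate kinase, and Extl2, a glycosyltransferase of heparan sulfate synthesis, rose 1.27-fold and 1.24-fold (adjusted p = 0.0499 and 0.00873), without overlap. Ankrd33b, an ankyrin repeat gene, had 161, 155, 139, 154 and 163 CPM in the morphine libraries, against 107, 113, 108, 120.1 and 107 CPM in the saline libraries. The groups were far apart, and Ankrd33b rose 1.39-fold (adjusted p = 1.82e-05). The repressor gene Bcl6 rose 1.35-fold, the chromatin factor gene Arid5b 1.28-fold, Lonrf1 1.33-fold and Fam53b 1.27-fold (adjusted p = 0.0355, 0.0355, 0.00877 and 0.0473). Among the lower genes outside the early set, Bmpr1b, a receptor for bone morphogenetic proteins, fell by 0.46 ± 0.11, Rnf215, a ring finger gene, by 0.43 ± 0.1, the zinc finger gene Zfp641 by 0.46 ± 0.11 and Atp2a3, a calcium pump of the endoplasmic reticulum, by 0.59 ± 0.14 (log2 scale ± SE; adjusted p = 0.0393, 0.0263, 0.0276 and 0.0499). Bmpr1b and Rnf215 were highest of the 10 libraries in saline replicate 5, at 31.6 and 37.2 CPM, and both lost their calls without it. Of the 10 genes of this paragraph other than Mthfd1l and Ankrd33b, each lost the call without at least 1 library.

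A further 8 called genes lay outside the rule for naming genes and are named after their values were seen. Besides 1700016P03Rik and Gm17180 they are the predicted genes Gm17971, Gm44199, Gm30177, Gm47260 and Gm45250, with log2 fold changes of -1.89, -0.97, -0.92, -0.73 and -0.88, and Gm16229 with 0.41. Of these 6 Gm17971 stayed called without each library. In the reference annotation exons of 22 of the 57 called genes overlap exons of another gene, Arntl, Tef, Bhlhe40, Bhlhe41, Dusp1, Cdkn1a, Dll4, Chrm1 and Irs2 among them, mostly on the other strand, and with the counting not given their reads may not be told apart from those of the partner.

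The opioid system itself showed no called gene. Oprm1, the receptor for morphine, had 5.51, 5.15, 4.62, 3.19 and 3.01 CPM in the morphine libraries, against 3.56, 4.34, 5.67, 3.31 and 2.58 CPM in the saline libraries. The groups overlapped, with a log2 fold change of 0.15 ± 0.21 (95% interval -0.28 to 0.58, adjusted p = 0.782). A call also had to pass the adjustment over all genes tested, so a change of that size or larger could go uncalled. The delta, kappa and nociceptin receptor genes Oprd1, Oprk1 and Oprl1 stood at -0.02 ± 0.09, -0.43 ± 0.27 and 0.11 ± 0.08 (log2 fold change ± SE; adjusted p = 0.954, 0.484 and 0.522). Of the peptide precursors, Penk (enkephalin) was at -0.26 ± 0.15, Pdyn (dynorphin) at -0.03 ± 0.09, Pnoc (nociceptin) at 0.23 ± 0.19 and Pomc (endorphin) at -0.33 ± 0.39 (adjusted p = 0.442, 0.902, 0.61 and 0.744). Below the receptor, 0 of 17 adenylyl cyclase and protein kinase A genes, 0 of 10 CREB family genes, 0 of 13 phosphodiesterases and 0 of 16 regulators of G protein signalling were called, against 57 calls and 2400 genes at an unadjusted p under 0.05 in all genes tested. Their median log2 fold changes were 0.08, -0.03, 0.11 and -0.01.

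Of 25 glucocorticoid receptors and targets 1 fell, Dusp1, and 0 rose, with a median of 0.07, against 0.134% lower and 0.185% higher over all genes tested. Fkbp5, a chaperone that glucocorticoids induce, had 22.7, 22.5, 26.2, 28.8 and 24.6 CPM in the morphine libraries, against 24.3, 24.4, 18.4, 20.5 and 25.1 CPM in the saline libraries, with overlap, at 0.15 ± 0.12 (log2 fold change ± SE, adjusted p = 0.596), and Sgk1, another target, stood at 0.1 ± 0.12 (adjusted p = 0.743). Of 18 heat shock genes 16 had positive fold changes and 0 were called, with a median of 0.13, and of 16 endoplasmic reticulum chaperones 15 were positive and 0 called, with a median of 0.13. None of 12 GABA-A receptor subunits, 11 AMPA and NMDA receptor subunits, 7 metabotropic glutamate receptors, 14 tested dopamine and serotonin receptors and 21 tested cholesterol genes were called, with medians of 0.15, 0.05, 0.13, 0.04 and 0.03.

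Markers of glia leaned to the saline side without a call. All 12 astrocyte markers had negative log2 fold changes, with a median of -0.1, and summed to 4700 to 5280 CPM in the morphine libraries and 4610 to 6710 CPM in the saline libraries. The astrocyte factor gene Sox9 had a log2 fold change of -0.42 ± 0.11 and did not overlap between the groups (adjusted p = 0.0947). All 12 myelin markers were negative too, with a median of -0.18, and summed to 1330 to 1610 CPM in the morphine libraries and 1220 to 2280 CPM in the saline libraries. Of 12 microglial markers 1 was positive, with a median of -0.09. With morphine in adults on water and in adolescents on antibiotics the myelin medians were positive, at 0.43 and 0.27. In the same order they were 0.04 and -0.06 for astrocyte markers and 0 and -0.08 for microglial markers. The high ends of the astrocyte and microglial sums were in saline replicate 5 and that of the myelin sum in saline replicate 4. The part of cell makeup in the called genes was not tested.

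Within each group the called genes were often highest or lowest in the same libraries. Of the 11 called early genes, Dll4 counted among them, 7 were highest among the morphine libraries in replicate 5 and 6 were lowest in replicate 3. Among the saline libraries 6 were highest in replicate 5 and 4 in replicate 4. Of the 24 lower genes, which include these 11, 11 were lowest among the morphine libraries in replicate 3. Among the saline libraries 12 of the 24 were highest in replicate 5 and 13 were lowest in replicate 2. Of the 33 higher genes, 20 were lowest among the morphine libraries in replicate 3, and 12 were lowest among the saline libraries in replicate 5. No such count was made over all genes tested, so these counts are not read as a trait of the called genes. Without saline replicate 5 the count of called genes was 37, and it was 42 without saline replicate 4, 33 without morphine replicate 1, 36 without morphine replicate 2, 38 without morphine replicate 4 and 33 without morphine replicate 5. Without the other 4 libraries in turn it was 57 to 63, but not of the same genes. Of the 57, 45, 50 and 41 stayed called without saline replicates 1, 2 and 3, and 45 without morphine replicate 3. A fit restricted to the 2 groups called 20 genes, 19 of them among the 57.

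The same contrast was then read in the adults on water and the adolescents on antibiotics, whose levels did not enter the fold changes above although all libraries share 1 estimate of the spread. In adults on water morphine called 85 genes (0.475%), and in adolescents on antibiotics 522 (2.92%). Of the 57 genes, 21 were also called in adults, which is 36.8% of the 57 and 24.7% of the adult calls, and 52 had the same sign there, against 53.1% of all genes tested. On antibiotics 25 were also called, or 43.9% of the 57 and 4.79% of the calls on antibiotics, and 53 had the same sign, against 46.2% of all genes tested. In all 3 comparisons 18 genes were called, and 29 were called in adolescents on water and in neither of the others. By group, 8 of the 9 called clock genes were also called in adults and 8 on antibiotics. Of the 11 called early genes, Dll4 counted among them, 9 were called in adults and 7 on antibiotics. Both groups were picked from the calls, so these counts leave out uncalled members such as Egr1, Nr4a1 and Junb. Of the 29 other named genes 3 were called in adults and 8 on antibiotics. The 3 were Sphk2, Mthfd1l and Ankrd33b. The adult count of 85 became 30, 51, 153 and 50 when adult morphine replicates 1, 3, 4 and 5 were left out in turn, and 41, 46, 36 and 43 when adult saline replicates 2, 3, 4 and 5 were. The count of 522 on antibiotics became 214, 327 and 970 when morphine replicates 2, 3 and 5 of that drink were left out in turn, and 311 and 284 when saline replicates 3 and 4 were.

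**Figure D4:**
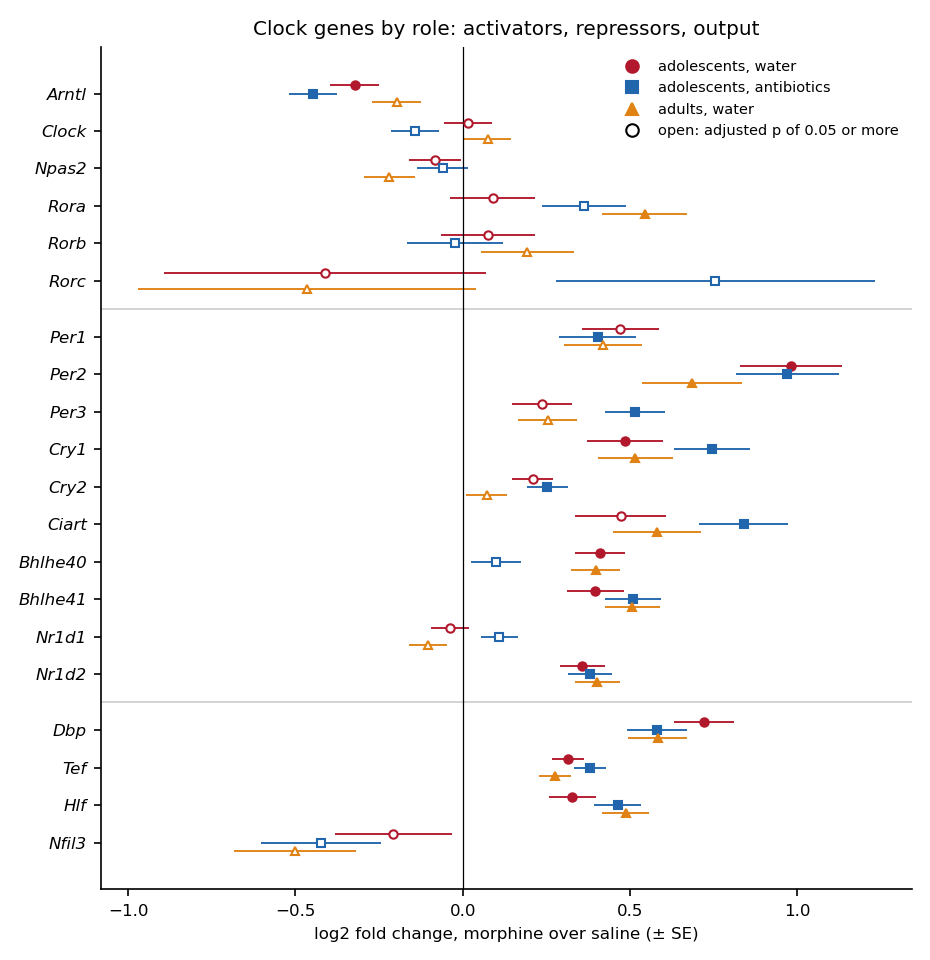
Log2 fold change, morphine over saline, with SE (horizontal axis) of 20 clock genes, grouped by horizontal lines into activators, repressors and output factors, in adolescents on water (red circles), adolescents on antibiotics (blue squares) and adults on water (orange triangles). Filled symbols have an edgeR adjusted p under 0.05. Per2, Cry1, Bhlhe41, Nr1d2, Dbp, Tef and Hlf are filled in all 3.

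Most of the called clock genes were called in all 3 settings, though not all with changes of like size. Per2 had log2 fold changes of 0.98 ± 0.15 in adolescents on water, 0.97 ± 0.15 in adolescents on antibiotics and 0.68 ± 0.15 in adults on water (± SE), and Dbp had 0.72 ± 0.09, 0.58 ± 0.09 and 0.58 ± 0.09 in the same order. Bhlhe40 had 0.41 ± 0.07 and 0.4 ± 0.07 in adolescents and adults on water and 0.1 ± 0.07 on antibiotics, and the difference between the drinks in adolescents did not pass (0.31, 95% interval 0.1 to 0.52, adjusted p = 0.112). For the early genes, Btg2 had -1.99 ± 0.19 on water, -0.99 ± 0.2 on antibiotics and -1.62 ± 0.2 in adults, and Arc had -1.16 ± 0.24, -1.42 ± 0.24 and -1.01 ± 0.24. The difference between the drinks in Btg2 did not pass (-1, 95% interval -1.56 to -0.43, adjusted p = 0.0649). Mir212 had -1.89 ± 0.34, -0.5 ± 0.33 and -0.46 ± 0.32, and Npas4 -1.72 ± 0.34, -0.75 ± 0.36 and -1.02 ± 0.35, where the values on antibiotics and in adults did not pass.

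**Figure D5:**
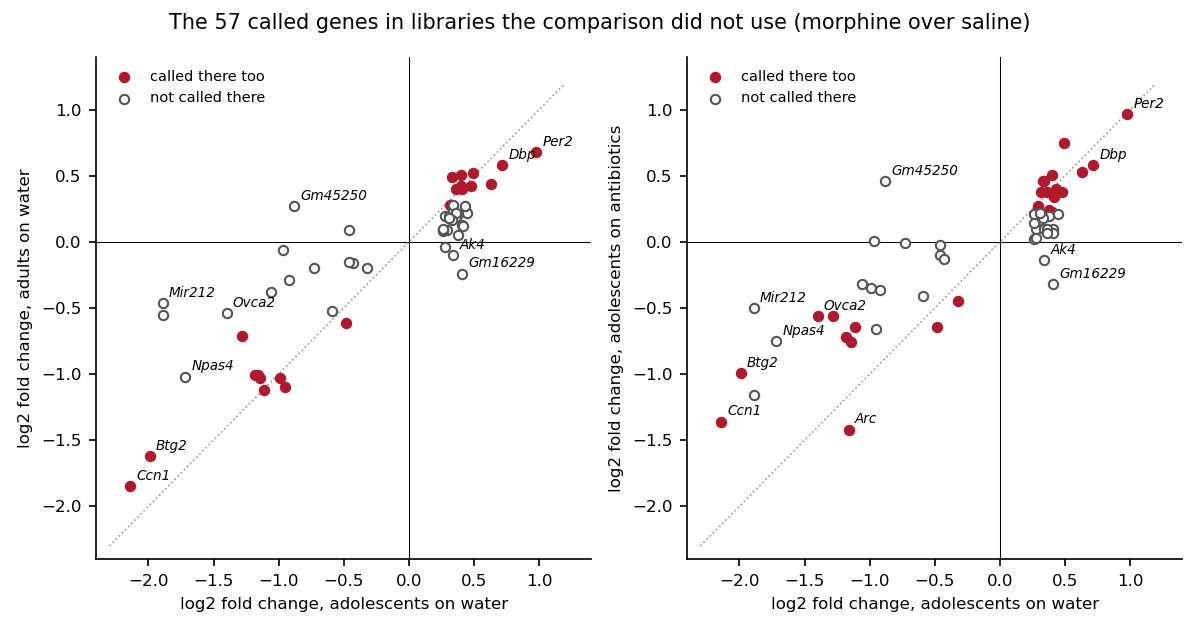
Log2 fold changes of the 57 called genes in adolescents on water (horizontal axes) against those in adults on water (left panel) and in adolescents on antibiotics (right panel), vertical axes, all morphine over saline. Filled points were called there too, open points were not, and the dotted line marks equal values. Most points share their sign, and Gm45250, Ak4 and Gm16229 do not in either panel.

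Whether the drug difference itself depended on age was tested gene by gene. In the difference between adolescents and adults on water edgeR called 0 of 17880 genes (0%). The unadjusted p was under 0.05 for 1788 genes. The calls numbered 42 by DESeq2 and 0 by limma-voom. edgeR called 8 without water-saline replicate 1 and 2 without water-saline replicate 3 of the adolescents. Of the 57 genes 20 had an unadjusted p under 0.05 in this test, which shares its adolescent libraries with the calls. The widest of these differences was in Mir212, at -1.42 (95% interval -2.36 to -0.48, unadjusted p = 0.00368, adjusted p = 0.287). For Dbp the difference was 0.14 (95% interval -0.11 to 0.39), for Per2 0.3 (-0.14 to 0.73) and for Btg2 -0.36 (-0.92 to 0.2). For Npas4 it was -0.7 (-1.69 to 0.29), an interval that holds 0 and also differences larger than 1 on the log2 scale. The intervals are not adjusted for the number of genes tested, so a difference beyond them could still go uncalled.

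The difference between water and antibiotics in adolescents was called for 221 genes (1.24%), 110 with a more positive drug change on water (0.615%) and 111 with a more negative one (0.621%). Of the 57 genes 4 were among them, Ovca2, Ak4, Gm45250 and Gm16229, of which Gm45250 and Gm16229 were named after their values were seen. The gene with the smallest p was Bdnf, the neurotrophin gene of cortical neurons. On water it had 37.5, 44.9, 33.3, 39.4 and 40.5 CPM in the morphine libraries, against 30.6, 26.9, 38.9, 33.2 and 32.2 CPM in the saline libraries, and saline replicate 3 lay above morphine replicates 1 and 3. On antibiotics it averaged 24.8 ± 3.49 CPM with morphine and 39.2 ± 1.73 CPM with saline (SD, n = 5 each). The log2 fold change was 0.27 ± 0.1 on water (adjusted p = 0.256) and -0.66 ± 0.11 on antibiotics (adjusted p = 0.000112), a difference of 0.93 ± 0.15 (SE; adjusted p = 0.00166). It stayed called without each of the 20 libraries. Klf10, a factor induced by TGF-beta, and Rheb, the activator of mTOR, had log2 fold changes of 0.13 ± 0.1 and 0.23 ± 0.07 on water and -0.58 ± 0.09 and -0.3 ± 0.07 on antibiotics, with differences of 0.72 and 0.53 (adjusted p = 0.00878 for both). Crtc3, a coactivator of CREB, stood at -0.35 ± 0.1 on water and 0.39 ± 0.1 on antibiotics (difference -0.74, adjusted p = 0.00878), and Rere, a corepressor, at 0.02 ± 0.05 and 0.4 ± 0.05 (difference -0.38, adjusted p = 0.011). None of these 5 genes was called on water. The count of 221 depended on single libraries: on water it became 38 and 66 when morphine replicates 2 and 3 were left out in turn, and 334 and 28 when saline replicates 3 and 5 were. On antibiotics it became 19, 48, 130 and 773 when morphine replicates 2, 3, 4 and 5 were left out, and 31 and 28 when saline replicates 3 and 4 were. Ak4 lost its call without any 1 of 8 libraries and Ovca2 without any 1 of 15, at adjusted p-values up to 0.0824 and 0.115.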

How the data were processed

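The authors deposited 1 table of read counts per gene for 40 libraries, which holds whole numbers that are not normalized, and 0 of its columns were left unused. Per the submitters' processing notes, STAR 2.7.10a, DESeq2 and the mm10 build were used. The sources used here give neither their annotation nor the strand setting of the counting. Per the labels' protocols, polyadenylated RNA was extracted with the RNeasy Mini kit. Of 56980 gene identifiers, 52073 (91.4%) were matched to a symbol without regard to version. Counts were fitted with edgeR 4.0.16 in R 4.3.3 (quasi-likelihood test, TMM scaling, filterByExpr with a count minimum of 10 and a total of 15) over all 40 libraries with 1 term per group, and Benjamini-Hochberg adjusted p-values under 0.05 over all 17880 genes are calls. The common biological coefficient of variation was 9.14%. Levels are in counts-per-million (CPM) on TMM-scaled library sizes, which do not correct for gene length, so levels of different genes are not compared. Replicate libraries differed by more than sampling noise. Differences of the drug contrast between adolescents and adults on water and between water and antibiotics in adolescents were contrasts in the same fit. Alternatives were DESeq2 1.42.0, limma 3.58.1 (voom with sample weights), other size factors and filters, a fit of only the compared groups, a replicate block and leaving out each library. The edgeR steps were tested on simulated counts. Named genes were called, with an established symbol and a mean of at least 1 CPM, or belonged to a list of genes given whatever their p, or were the 2 uncalled members of a list with the largest changes. The comparison, the lists and this rule were chosen with earlier results of these data known. Lists are described by counts and medians, with no test. Results for some genes are not reported here.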

Additional observations from a re-analysis of the deposited data

Results flagged for a closer look

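In some genes 1 library stood apart from the other 4 of its group, by the gap to its neighbour relative to the group's range (Dixon's criterion at the 95% level). Of 160 such checks 9 were met, where chance gives about 1 in 20. Per2 had 44.03 CPM in morphine replicate 3, against 64.7 to 72.46 CPM in the other morphine libraries. Arntl, which fell with morphine, had 28.48 CPM in morphine replicate 2 (25.31 to 26.22 CPM in the rest) and 36.36 CPM in saline replicate 3 (31.55 to 32.53 CPM in the rest). Gm44199 had 2.207 CPM in morphine replicate 3, against 2.79 to 2.922 CPM in the other morphine libraries. Saline replicate 1 was high for Sik2, at 35.22 CPM against 29.4 to 30.57 CPM in the other saline libraries, and for Mthfd1l, at 16.18 CPM against 9.877 to 11.6 CPM. Saline replicate 5 was low for Mir212, at 2.685 CPM against 2.983 to 3.047 CPM, and for Oprl1, at 31.39 CPM against 38.27 to 40.03 CPM, and it was high for Pomc, at 2.375 CPM against 1.032 to 1.261 CPM.

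The log2 fold change with morphine differed between water and antibiotics in adolescents for 221 genes, by edgeR's test of the difference, and 14 of them are given here. The change was more positive on water for the neurotrophin gene Bdnf (difference 0.93), for Klf10 (0.72), Rheb (0.53), Tceal9 (0.52) and the cyclophilin gene Ppid (0.51), and for Ak4 (0.48) and Gm16229 (0.73). It was more negative on water for the CREB coactivator gene Crtc3 (-0.74), the phospholipase gene Plcd3 (-0.74), Fam214a (-0.58), Arhgef10l (-0.53) and Rere (-0.38), and for Ovca2 (-0.84) and Gm45250 (-1.34). Bdnf, Tceal9, Klf10, Rheb, Ppid, Fam214a, Crtc3, Rere, Arhgef10l and Plcd3 were called on antibiotics and not on water. These 10 were the 5 with the smallest p in each direction, and the other 4 were called on water too. Each remained called without any 1 of the 20 libraries except Ak4 and Ovca2.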

How the results depend on the processing

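The count of 57 called genes was 137 without a filter on low counts (67 higher, 70 lower), 102 with DESeq2 (60 higher, 42 lower) and 20 when the fit held just the compared groups (11 higher, 9 lower), and 49 to 61 under the other alternatives. Leaving out each library in turn gave 33 to 63 genes (15 to 34 higher, 16 to 34 lower). Calls in the other contrasts, in the order age difference, drink difference, adult morphine and morphine on antibiotics, moved past 1.5 times as follows. Without a filter they were 55, 485 and 213 for the first 3, with DESeq2 42, 423 and 153, and with limma-voom 457 for the drink difference, 219 for adult morphine and 1204 on antibiotics. In fits of only the compared groups they were 1 for the age difference and 148 for adult morphine. Leaving out single libraries gave 0 to 8, 19 to 773, 30 to 153 and 214 to 970. No called gene changed sign under any alternative. Of the uncalled genes some changed sign when 1 library was left out: Kcnj13 (range -0.15 to 0.24; -0.11, -0.12, -0.01 and -0.15 without saline replicates 1 and 3 and morphine replicates 3 and 4), Pdyn (0.01 without saline replicate 1 or 5), Oprd1 (range -0.07 to 0.04; 0.04 and 0.01 without saline replicate 3 and morphine replicate 1), Clock (-0.01 to 0.03; -0.01 without saline replicate 5 or morphine replicate 5), Egr1 (-0.17 to 0.1; 0.1 without morphine replicate 3) and Rora (-0.02 to 0.15; -0.02 without morphine replicate 5). The cause of these shifts was not tested. With a replicate block within each age 61 genes were called, 51 of them among the 57. The deviations of morphine and saline libraries of the same number had correlations of 0.104, -0.014, -0.029, 0.117 and -0.1. Those of different numbers ran from -0.145 to 0.163. Correlations this few and small cannot decide whether the numbers pair the libraries. Genes near 0.347 CPM or below rest on about 3 counts per library.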
